A study of Mus musculus with 16 samples.

Results

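Hippocampus and cortex of wild-type mouse fetuses were compared at embryonic day 18.5 by RNA sequencing of dissected tissue. All 6 hippocampus libraries of the series (replicates 1 to 3 from pregnancies kept in an enriched environment, EE, and replicates 1 to 3 under standard habitation, SH) were set against the 6 cortex libraries that carry the same replicate numbers, 3 EE and 3 SH, so that 12 of the 16 libraries entered the comparison. The other 4 libraries, cortex replicates 4 and 5 of each housing, are tabulated with a shorter gene list and served as a second set of cortex values. All 4 groups share the WT genotype, the age and the RNA extraction with Trizol. The housing of the mother differs between groups, and the tissue is named on the labels without a dissection border. No label says whether libraries with the same number came from the same fetus, litter or pool. P-values therefore measure the spread between these libraries, which may be technical in part. The tables list 15247 genes in hippocampus and 15996 in cortex replicates 1 to 3. Of these, 14993 were listed in all 12 tables under 1 unique symbol, and the 13158 with a mean of at least 1 FPKM (fragments mapped to a gene, scaled by its length and by the library's depth) were tested.

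The hippocampus arises from the medial edge of the pallium, the dorsal part of the telencephalon, next to the cortical hem, a signalling centre that secretes Wnt and BMP ligands. The neocortex arises from the adjacent dorsal pallium. Both tissues make excitatory neurons from radial glia by way of intermediate progenitors, but dentate granule neurons are produced late, from a progenitor pool that migrates away from the ventricle, so that neurogenesis in the dentate gyrus goes on around birth when most neocortical neurons have been born. Interneurons of both tissues come from the ganglionic eminences below the cortex, where the striatum also forms.

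Recovered reads per library ran from 15334762 to 21001601. Summed FPKM was 348413 to 395825 in 11 of the libraries and 511438 in cortex SH replicate 3, which also stood apart on the second principal component (score -54.6, against -14 to 22.4 in the other 11 libraries) and had low values for long transcripts (Spearman rho of -0.705 between its deviation from the mean and transcript length, across genes). The first component, with 50.1% of the variance, separated the tissues, and the second held 23.7%. In hippocampus, EE replicates 1 and 2 and SH replicate 1 held 4989, 10300 and 16656 FPKM of Ttr, the transthyretin gene of the choroid plexus, against 33.6 to 144 FPKM in the other 3 hippocampus libraries and 8.30 to 281 FPKM in cortex. Hippocampus EE replicate 3 and SH replicate 2 held 81.1 and 70.8 FPKM of Xist and at most 0.021 FPKM of Ddx3y, whereas the other 10 libraries held at most 0.107 FPKM of Xist and 4.67 to 15.9 FPKM of Ddx3y. The mixture of sexes was therefore limited to hippocampus among these 12 libraries. Cortex EE replicate 3 and SH replicate 2 held 0.026 and 0.074 FPKM of Xist. Neither therefore shared a fetus with the hippocampus library of the same housing and number. Over all genes tested, calls numbered 2219 without the 3 hippocampus libraries with much Ttr (1441 higher, 778 lower), against 4661 with all 12, and the main counts of lists are also given without libraries that stand apart.

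A total of 4661 genes, 35.4% of those tested, differed between hippocampus and cortex at an adjusted p of 0.05 or less (limma on log2(FPKM + 1) with a term for housing, Benjamini-Hochberg adjustment over all genes tested). Of these, 3233 were higher in hippocampus (24.6% of genes tested) and 1428 were lower (10.9%). The median log2 difference was 0.53 among the higher genes and -0.55 among the lower genes, so most differences were small. A log2 difference of at least 1 was reached by 583 genes (4.43%), 390 of them higher (2.96%) and 193 lower (1.47%). The 6 hippocampus and 6 cortex libraries did not overlap for 1967 genes with higher values in hippocampus (14.9%) and for 724 with lower values (5.5%). The share of calls that were higher depended on scaling. It was 69.4% on the deposited values, 52.1% after median-of-ratios scaling, 51.1% after quantile normalization and 52% once trends with length, GC content and level were removed. The median log2 difference of all genes tested was 0.09 on the deposited values and -0.01 after median-of-ratios scaling. All 583 genes with the larger difference kept their sign under median-of-ratios scaling and quantile normalization. The size rule made this likely, as these scalings moved the median of all genes only from 0.09 to -0.01 and 0.

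**Figure D1:**
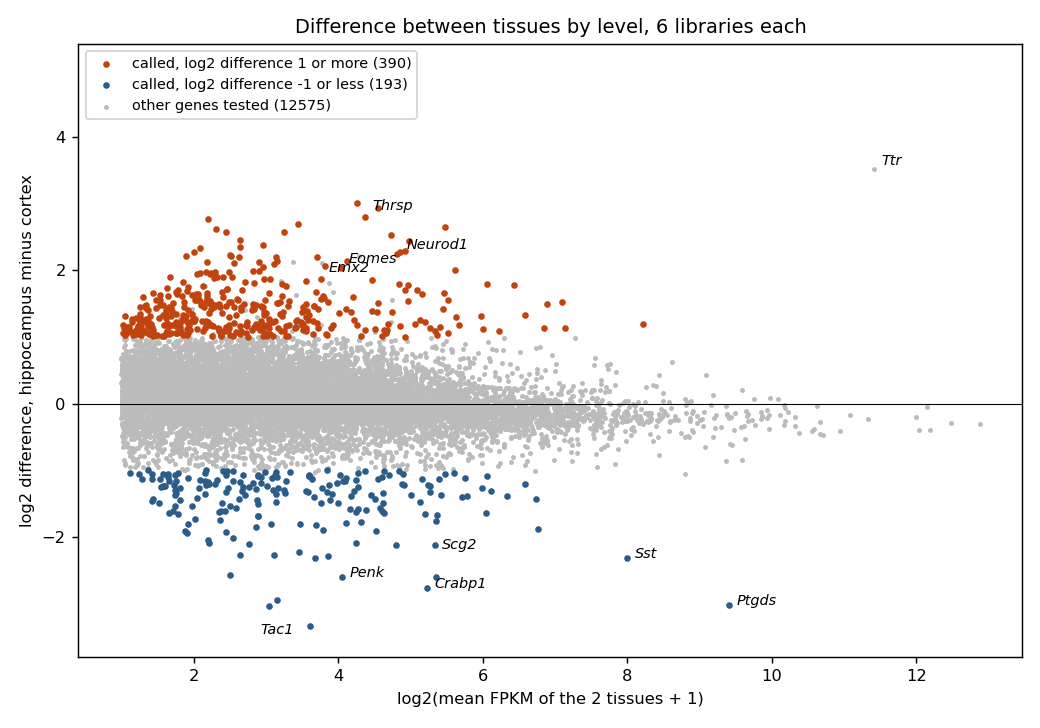
Each point is one of the 13158 genes tested, with the log2 of the mean FPKM of both tissues plus 1 on the horizontal axis and the fitted log2 difference, hippocampus minus cortex, on the vertical axis. Red points are the 390 genes called with a log2 difference of at least 1, blue points the 193 called with -1 or less, and grey points the rest. Ttr has the largest difference (3.52) and is grey, since its 6 hippocampus libraries differ too much among themselves for the test.

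Zbtb20 and Prox1, markers of hippocampal fields, were named with their values known, so they do not test the label hippocampus. Zbtb20 (chr16:42875881-43642602, GRCm38) encodes a zinc finger repressor needed for the identity of CA1 neurons. It measured 5.59, 12.03 and 14.4 FPKM in hippocampus (lowest, median and highest of the 6 libraries, the order of every such group of 3 values below), against 0.632, 1.94 and 2.27 FPKM in cortex, with no overlap, a log2 difference of 2.13 ± 0.22 (SE) and an adjusted p of 2.17e-05. Prox1, the homeobox gene that specifies dentate granule cells, measured 5.67, 11.2 and 21.5 FPKM in hippocampus and 1.57, 2.43 and 3.08 FPKM in cortex, again with no overlap (log2 difference 1.87 ± 0.23, adjusted p = 7.19e-05). Of 33 genes that mark the dentate gyrus or a CA field, mostly from adult tissue, 30 were listed in all 12 tables and 26 were tested. Of these, 8 were higher, 8 were lower and 10 were not called (background 24.6% higher and 10.9% lower). Their median log2 difference was -0.12, against 0.09 over all genes tested. Zbtb20 and Prox1 were the 2 members called with a log2 difference of at least 1.

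Among the other dentate and CA markers, Fibcd1, a CA1 marker, measured 4.305, 5.64 and 6.12 FPKM in hippocampus and 2.298, 2.83 and 3.33 FPKM in cortex, and Grik4, the kainate receptor subunit of CA3, 3.22, 4.21 and 6.93 FPKM in hippocampus and 1.99, 2.16 and 2.36 FPKM in cortex. Neither pair of ranges overlapped, and the log2 differences were 0.74 ± 0.11 (adjusted p = 3.26e-04) and 0.80 ± 0.15 (adjusted p = 0.0014). Nr3c2, the mineralocorticoid receptor, also rose in hippocampus (log2 difference 0.82 ± 0.19, adjusted p = 0.00598) with no overlap. Lmo1, a LIM-only transcriptional cofactor, and Grp, the gastrin-releasing peptide, rose with overlapping ranges, by 0.83 ± 0.20 and 0.95 ± 0.25 on the log2 scale (adjusted p = 0.0059 and 0.0116). Wfs1, an adult CA1 marker, and Mpped1 fell instead, by 0.69 ± 0.15 and 0.71 ± 0.17 on the log2 scale (adjusted p = 0.00329 and 0.00748), also with overlap, and Nnat, a CA3 marker and imprinted gene, measured 436, 542 and 708 FPKM in hippocampus, against 743, 954 and 1409 FPKM in cortex (log2 difference -0.85 ± 0.17, adjusted p = 0.00203). Against cortex replicates 4 and 5, Nnat did not pass the test (log2 difference -0.38), and without the 3 hippocampus libraries with much Ttr neither did Nr3c2 (0.78), Mpped1 (-0.33) or Spock1 (-0.34, against -0.63 ± 0.17 in all libraries).

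**Figure D2:**
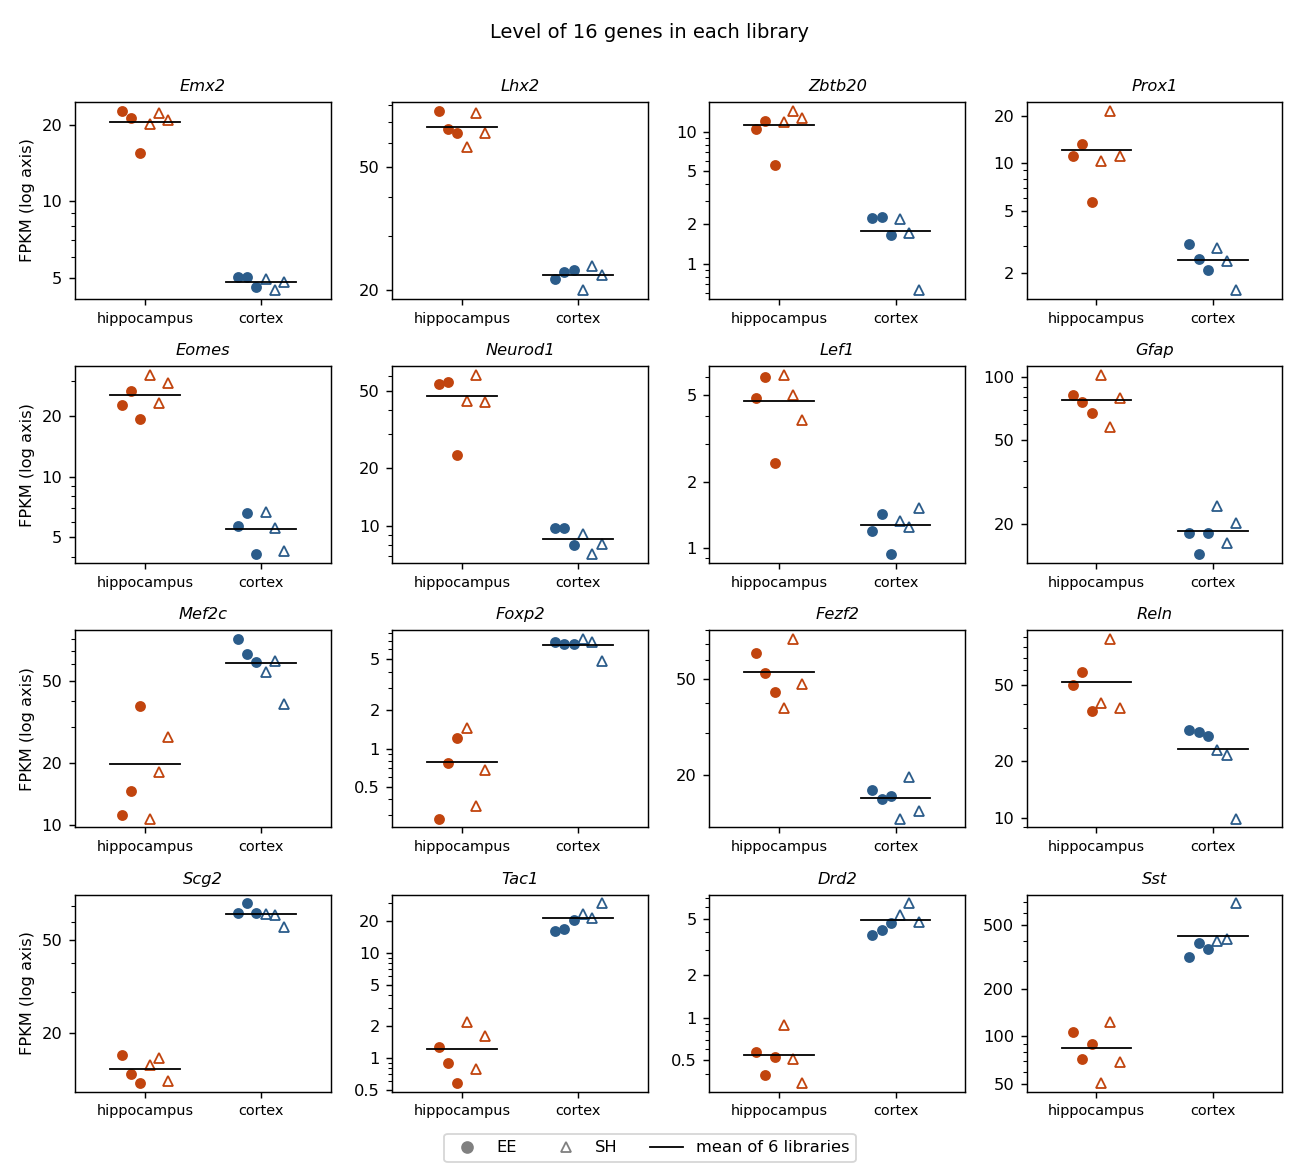
FPKM of 16 genes in each of the 12 libraries, hippocampus on the left and cortex on the right of each panel, on log axes. Filled circles are EE libraries, open triangles SH libraries and black lines the mean of 6 libraries. The 2 tissues do not overlap for the 16 genes shown.

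The factors of the medial pallium and the cortical hem were higher as a group. Of 38 members, the 34 that were in all 12 tables were tested, and 24 were higher and 0 lower (background 24.6% higher and 10.9% lower), 20 of them without overlap of the libraries (background 14.9%), with a median log2 difference of 1.18, against 0.09 over all genes. Summed over the list, hippocampus libraries held 660 to 785 FPKM and cortex libraries 292 to 363 FPKM. Emx2 (chr19:59458372-59465357), a homeobox gene graded from high medial to low lateral pallium and required for the dentate gyrus, measured 15.4, 20.97 and 22.6 FPKM in hippocampus, against 4.47, 4.87 and 5.03 FPKM in cortex. Its log2 difference was 1.87 ± 0.09 with an adjusted p of 1.60e-07, the smallest p among genes that were higher. Lhx2 (chr2:38339281-38369733), a LIM homeobox gene that sets cortical against hem fate, measured 58.4, 65.6 and 76.4 FPKM in hippocampus and 20, 22.6 and 23.9 FPKM in cortex (log2 difference 1.55 ± 0.08, adjusted p = 1.90e-07). The related Emx1 differed less, with 29.2, 34.5 and 43.3 FPKM in hippocampus, 11.5, 13.5 and 25.3 FPKM in cortex and a log2 difference of 1.2 ± 0.17 (adjusted p = 2.36e-04). Its highest cortex value was that of cortex SH replicate 3.

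The doublesex-related genes Dmrt3 and Dmrta2, which act with Emx2 in the medial cortex, showed the same separation. Dmrt3 measured 4.201, 6.06 and 8.097 FPKM in hippocampus, against 0.166, 0.407 and 0.591 FPKM in cortex, and Dmrta2 6.11, 7.16 and 8.14 FPKM in hippocampus, against 1.43, 1.97 and 2.34 FPKM in cortex. The log2 differences were 2.34 ± 0.15 and 1.47 ± 0.09, with adjusted p of 8.98e-07 and 3.70e-07. Lmx1a, the LIM homeobox gene of the cortical hem, measured 2.43, 4.02 and 10.6 FPKM in hippocampus and 0.1, 0.197 and 0.379 FPKM in cortex (log2 difference 2.22 ± 0.26, adjusted p = 5.20e-05). Lhx9, a LIM homeobox gene of the medial telencephalon and the thalamus, and Gli3, the Hedgehog pathway repressor required for hem formation, were higher by 1.39 ± 0.15 and 1.17 ± 0.18 on the log2 scale (adjusted p = 4.11e-05 and 3.60e-04). Nuclear factor I genes, which promote glial fates and dentate development, rose as a set of 3. Nfia measured 11.8, 18.6 and 19.8 FPKM in hippocampus and 4.93, 5.68 and 6.46 FPKM in cortex. Nfix had the highest level of the 3 per length, with a median of 178 FPKM in hippocampus, against 63.9 FPKM in cortex. Nfib and Nfix were higher by 1.41 ± 0.14 and 1.49 ± 0.14 on the log2 scale (adjusted p = 1.34e-05 and 1.11e-05). Members that were not called included the BMP target Msx1 (3.699, 8.53 and 32.1 FPKM in hippocampus, 2.903, 4.22 and 8.03 FPKM in cortex, log2 difference 1.09 ± 0.45, adjusted p = 0.0746) and the hem ligand Bmp4 (-0.87 ± 0.37, adjusted p = 0.0855). Msx1 passed the test without cortex SH replicate 3 (1.24) and against cortex replicates 4 and 5 (1.55), and Bmp4 was called lower without the 3 hippocampus libraries with much Ttr (-1.56).

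Wnt ligands bind Frizzled receptors and, with R-spondins as amplifiers, stabilise beta-catenin, which activates targets through Lef1 and related DNA-binding factors. The ligand Wnt8b is a classical marker of the medial pallium. It measured 4.25, 7.06 and 11.7 FPKM in hippocampus, against 0.072, 0.197 and 0.198 FPKM in cortex EE replicates 1 to 3 and 0.218, 0 and 0.08 FPKM in cortex SH replicates 1 to 3, where 1 library was at 0. The log2 difference on the log2(FPKM + 1) scale was 2.77 ± 0.19 (adjusted p = 9.94e-07). The hem ligand Wnt2b measured 3.49, 7.29 and 8.84 FPKM in hippocampus and 0.188, 0.704 and 0.881 FPKM in cortex (log2 difference 2.13 ± 0.21, adjusted p = 1.50e-05), and Wnt5a, a ligand of beta-catenin-independent signalling, 4.21, 6.43 and 7.94 FPKM in hippocampus and 1.85, 2.54 and 2.97 FPKM in cortex (0.99 ± 0.15, adjusted p = 3.09e-04). All 3 R-spondin genes listed were higher without overlap. Rspo1 measured 4.37, 6.42 and 8.05 FPKM in hippocampus, against 0.763, 0.867 and 1.29 FPKM in cortex, and Rspo2 and Rspo3 were higher by 1.38 ± 0.11 and 1.5 ± 0.11 on the log2 scale, with adjusted p of 8.98e-07 for Rspo1, 3.52e-06 for Rspo2 and 2.44e-06 for Rspo3.

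Among receptors, Fzd1 measured 13.1, 16.6 and 19.3 FPKM in hippocampus and 4.49, 4.96 and 6.06 FPKM in cortex (log2 difference 1.5 ± 0.10, adjusted p = 9.94e-07), and Fzd10 3.57, 5.09 and 7.098 FPKM in hippocampus and 0.654, 0.972 and 1.21 FPKM in cortex (1.65 ± 0.14, adjusted p = 4.13e-06). The nuclear effector Lef1, required for the dentate gyrus, measured 2.44, 4.896 and 6.15 FPKM in hippocampus and 0.939, 1.29 and 1.52 FPKM in cortex, and Axin2, a feedback inhibitor that is itself a target of the pathway, 8.57, 12.5 and 16.9 FPKM in hippocampus and 4.701, 5.05 and 7.01 FPKM in cortex. Neither pair of ranges overlapped, with log2 differences of 1.29 ± 0.16 (adjusted p = 9.15e-05) and 1.02 ± 0.12 (adjusted p = 5.10e-05). Over the wider list of 68 Wnt pathway genes, 54 were tested, and 33 were higher and 3 lower (background 24.6% higher and 10.9% lower), with a median log2 difference of 0.49. Without the 3 hippocampus libraries with much Ttr, 18 were higher and 2 lower and the median was 0.40, whereas the hem and medial pallium list had 21 higher and 1 lower and a median of 1.06. The 2 lists share members, among them Wnt8b, whose 2.77 was the highest difference of each, so their counts are not independent. Of 42 BMP and TGF-beta pathway genes tested, 11 were higher and 2 lower (median 0.16), a higher share near the background of 24.6%. The members with the smallest p included Gdf10, a BMP family ligand, with 16.4, 18.3 and 23.2 FPKM in hippocampus and 4.89, 5.62 and 7.59 FPKM in cortex (log2 difference 1.57 ± 0.11, adjusted p = 1.70e-06), and the ligand gene Tgfb2, with 9.45, 14.3 and 16.3 FPKM in hippocampus and 2.92, 4.16 and 4.92 FPKM in cortex (1.53 ± 0.13, adjusted p = 6.49e-06).

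Hippocampus held more RNA of genes that mark intermediate progenitors and newborn neurons. Of 24 genes, 23 were tested, and 16 were higher and 0 lower (background 24.6% higher and 10.9% lower). The libraries did not overlap for 14 of them (background 14.9%), and the median log2 difference was 0.84. The summed level was 612 to 809 FPKM in hippocampus libraries and 420 to 469 FPKM in cortex libraries. Eomes (chr9:118478212-118486132), the T-box factor also called Tbr2 that defines intermediate progenitors, measured 19.4, 25 and 32.03 FPKM in hippocampus, against 4.13, 5.62 and 6.72 FPKM in cortex (log2 difference 2.03 ± 0.14, adjusted p = 9.94e-07). The proneural gene Neurog2 measured 6.79, 11.7 and 15.03 FPKM in hippocampus and 1.49, 1.93 and 4.19 FPKM in cortex, and Neurod1, a basic helix-loop-helix factor that dentate granule cells need to mature, 23.5, 49.3 and 60.8 FPKM in hippocampus and 7.14, 8.56 and 9.75 FPKM in cortex. The groups did not overlap for either gene. The log2 differences were 1.88 ± 0.13 (adjusted p = 9.94e-07) and 2.27 ± 0.19 (adjusted p = 5.68e-06). Tac2, the gene of the peptide neurokinin B, measured 10.6, 14.9 and 20.3 FPKM in hippocampus and 1.15, 1.68 and 2.28 FPKM in cortex (2.58 ± 0.17, adjusted p = 8.98e-07). In tissue RNA, more cells of a type and more RNA per cell cannot be told apart.

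The paralogous helix-loop-helix genes Nhlh1 and Nhlh2, which are expressed in newly born neurons, moved together. Nhlh1 measured 3.64, 7.51 and 10.1 FPKM in hippocampus, against 0.103, 0.303 and 0.595 FPKM in cortex (log2 difference 2.62 ± 0.17, adjusted p = 8.98e-07), and Nhlh2, a gene that Cajal-Retzius cells also express, 8.75, 12.8 and 17.97 FPKM in hippocampus, against 3.02, 3.45 and 4.66 FPKM in cortex (1.61 ± 0.14, adjusted p = 6.15e-06). Proneural factors bind the E-box CAGATG, and the 250 bases before the RefSeq start (GRCm38.p6) of each hold 1 copy, shown in capitals on the gene's strand. The Wnt effectors Lef1 and Tcf bind TCAAAG, and the windows of Fzd1, which was higher, and of the dopamine receptor gene Drd2, which was lower and is described with the striatal genes, each hold 1 copy in capitals. They are shown to set 1 gene of each direction side by side.
Nhlh1, chr1:172057597-172057846, minus strand: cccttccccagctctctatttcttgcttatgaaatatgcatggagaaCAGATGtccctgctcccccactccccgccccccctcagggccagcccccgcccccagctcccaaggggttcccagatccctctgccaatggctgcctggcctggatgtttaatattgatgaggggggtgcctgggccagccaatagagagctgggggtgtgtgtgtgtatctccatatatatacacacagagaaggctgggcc
Nhlh2, chr3:102009895-102010144, plus strand: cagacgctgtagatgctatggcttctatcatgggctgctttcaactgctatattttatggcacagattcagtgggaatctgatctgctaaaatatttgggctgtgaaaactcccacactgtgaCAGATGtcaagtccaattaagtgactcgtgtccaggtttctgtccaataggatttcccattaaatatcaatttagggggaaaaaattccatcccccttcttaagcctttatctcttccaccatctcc
Fzd1, chr5:4758217-4758466, minus strand: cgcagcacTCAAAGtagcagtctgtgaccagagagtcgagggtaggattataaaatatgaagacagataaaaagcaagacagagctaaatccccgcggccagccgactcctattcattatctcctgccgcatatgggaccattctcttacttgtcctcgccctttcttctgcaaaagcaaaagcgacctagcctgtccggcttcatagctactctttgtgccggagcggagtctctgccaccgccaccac
Drd2, chr9:49340153-49340402, plus strand: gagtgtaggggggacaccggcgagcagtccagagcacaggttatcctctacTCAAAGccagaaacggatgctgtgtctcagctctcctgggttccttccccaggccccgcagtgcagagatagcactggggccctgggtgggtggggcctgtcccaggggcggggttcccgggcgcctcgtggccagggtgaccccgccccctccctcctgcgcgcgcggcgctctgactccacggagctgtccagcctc
Both motifs were searched on both strands, as CAGATG or CATCTG and as TCAAAG or CTTTGA, in genes with 1 RefSeq window (7906 of 13158 tested). The windows counted run from 250 bases before the start to 50 after it, so they are longer than the stretches printed. CAGATG was in 10.2% of these windows, in 15.3% of 242 windows of genes called higher with a log2 difference of at least 1 and in 13.6% of 103 windows of genes called lower by as much. TCAAAG was in 11.4% of the 7906 windows, in 9.5% of the higher and in 10.7% of the lower genes' windows. Among Wnt pathway genes called higher, 3 of 19 windows held TCAAAG, and among intermediate progenitor genes called higher, 2 of 10 held CAGATG. Of 9 windows of striatal genes called lower, 4 held TCAAAG. A match is a description of the letters and not of binding.

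Cell cycle genes rose with the progenitor genes. In the G2 and M phase list, 25 of 26 genes were higher and 0 lower (background 24.6% higher and 10.9% lower). Their log2 differences ran from 0.42 to 1.10, with a median of 0.71. Their summed level was 234 to 394 FPKM in hippocampus and 135 to 201 FPKM in cortex. Mki67, the proliferation marker, measured 7.98, 11.5 and 15.8 FPKM in hippocampus, against 2.27, 5.21 and 7.37 FPKM in cortex (log2 difference 1.1 ± 0.21, adjusted p = 0.00185), and Top2a, the topoisomerase of dividing cells, 19.5, 23.8 and 35.9 FPKM in hippocampus, against 7.19, 13.02 and 15.2 FPKM in cortex (0.96 ± 0.19, adjusted p = 0.00186). Both were named for their role with their values known. Cdc20, an activator of the anaphase-promoting complex, and Prc1, a spindle midzone protein, were higher without overlap by 0.78 ± 0.12 and 0.91 ± 0.15 on the log2 scale (adjusted p = 4.17e-04 and 5.94e-04). The mitotic kinase gene Aurka was higher by 0.78 ± 0.13 with slight overlap (adjusted p = 5.61e-04). S phase genes differed less, with 14 of 23 tested higher, 0 lower and a median of 0.42, against the same background. The replicative helicase subunits Mcm2 and Mcm7 were higher by 0.79 ± 0.12 and 0.42 ± 0.08 on the log2 scale (adjusted p = 3.31e-04 and 0.00119). Without the 3 hippocampus libraries with much Ttr, 13 G2 and M phase genes and 8 S phase genes passed the test, all higher, with medians of 0.50 and 0.29.

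Radial glia and early astrocyte genes were also mostly higher, with 24 of 37 higher, 3 lower (background 24.6% higher and 10.9% lower) and a median of 0.62. Gfap, the intermediate filament gene of astrocytes and dentate radial glia, measured 57.6, 77.6 and 102 FPKM in hippocampus, against 14.4, 18.1 and 24.2 FPKM in cortex (log2 difference 2 ± 0.14, adjusted p = 1.16e-06). Hopx, a homeodomain-only gene of quiescent and outer radial glia, measured 31.7, 49.6 and 65.6 FPKM in hippocampus and 7.601, 7.82 and 13.7 FPKM in cortex (2.29 ± 0.17, adjusted p = 2.22e-06). The filament gene Vim and the matrix gene Tnc were higher by 1.19 ± 0.13 and 1.3 ± 0.18 on the log2 scale (adjusted p = 3.72e-05 and 2.01e-04), and Mlc1, a membrane protein of astrocyte endfeet, by 1.06 ± 0.13 (adjusted p = 6.09e-05). None of these 5 genes had overlapping ranges. Without the 3 hippocampus libraries with much Ttr, 15 members were higher and 1 lower, and the median was 0.63.

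Cajal-Retzius cells are early neurons of the marginal zone that secrete reelin and derive largely from the hem and other margins of the pallium. Of 17 genes tested, 9 were higher and 4 lower (background 24.6% higher and 10.9% lower), with a median of 0.37. Without the 3 hippocampus libraries with much Ttr, 8 were higher and 1 lower. Reln itself, named for its role with its values known, measured 36.7, 45.6 and 87.5 FPKM in hippocampus, against 9.98, 24.9 and 29.2 FPKM in cortex, with a log2 difference of 1.14 ± 0.25 (adjusted p = 0.00438). Its ranges did not overlap, and its lowest cortex value was that of SH replicate 3. Trp73, the p53 family gene of hem-derived Cajal-Retzius cells, measured 6.94, 10.8 and 13.6 FPKM in hippocampus and 2.905, 3.49 and 3.7 FPKM in cortex (1.36 ± 0.13, adjusted p = 1.32e-05). Calb2, which encodes calretinin, measured 78.4, 81.6 and 106 FPKM in hippocampus and 31.4, 35.1 and 71.2 FPKM in cortex (1.12 ± 0.17, adjusted p = 3.94e-04). The LIM homeobox gene Lhx1 and the secreted factor gene Ndnf were higher by 0.97 ± 0.15 and 0.85 ± 0.17 on the log2 scale (adjusted p = 3.64e-04 and 0.00247). Spock3, a proteoglycan gene, went the other way (log2 difference -1.23 ± 0.18, adjusted p = 3.30e-04). Its ranges overlapped.

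**Figure D3:**
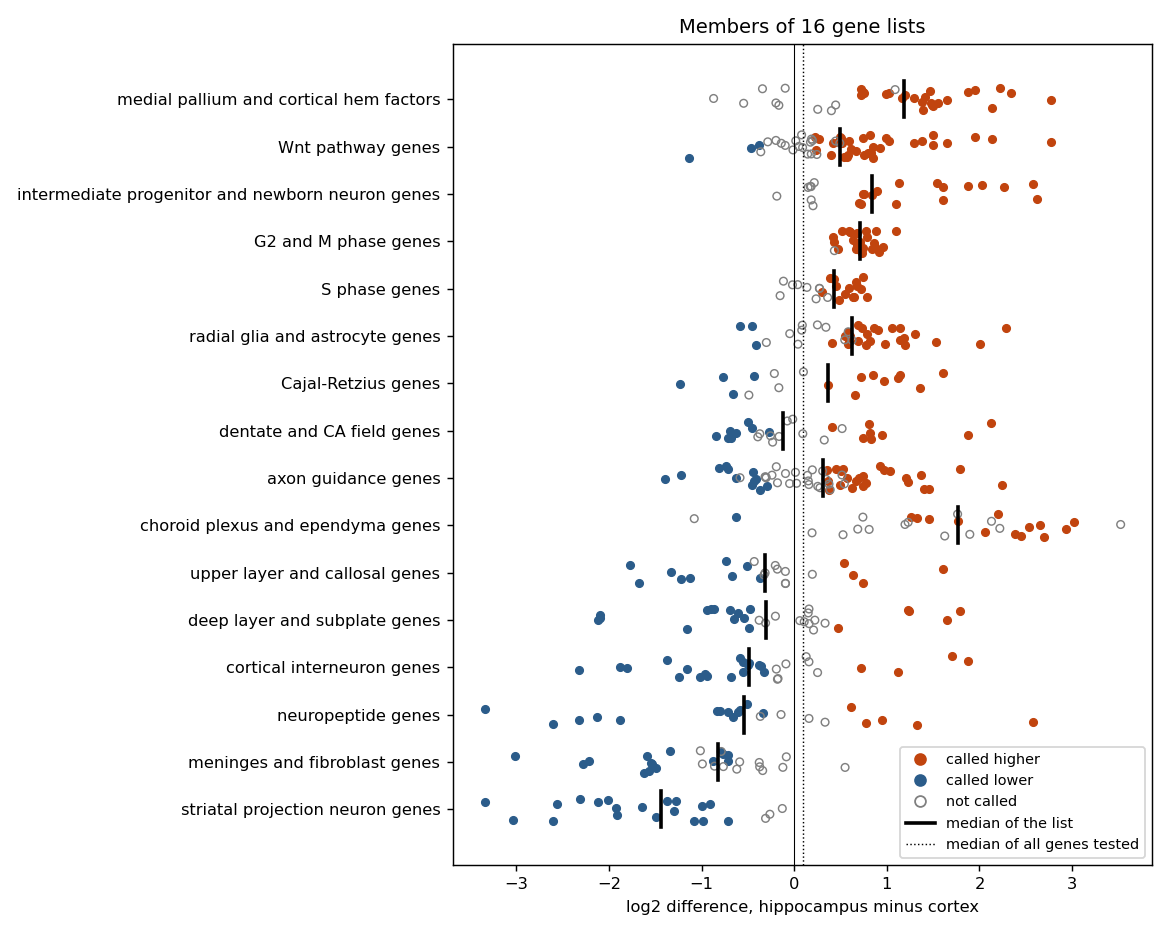
Log2 difference, hippocampus minus cortex, of every tested member of 16 gene lists, 1 list per row. Red points are members called higher, blue points members called lower and open grey points members not called; black bars are the medians of the lists and the dotted line the median of all genes tested (0.09). The medians run from 1.76 for choroid plexus and ependyma genes and 1.18 for medial pallium and hem factors to -1.44 for striatal genes, and points of both colours occur in the layer, Cajal-Retzius, axon guidance and interneuron rows.

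Genes that mark neocortical layers split. Of 22 upper layer and callosal genes, 4 were higher and 9 lower (median -0.32), and of 29 deep layer and subplate genes, 5 were higher and 13 lower (median -0.31). The background was 24.6% higher and 10.9% lower. Once the 3 hippocampus libraries with much Ttr were left out, 3 upper layer genes were higher and 6 lower (median -0.10), and 4 deep layer genes were higher and 9 lower (median -0.32). Mef2c, an activity-regulated transcription factor of cortical neurons, measured 10.8, 16.4 and 37.9 FPKM in hippocampus, against 38.5, 62.02 and 79.5 FPKM in cortex (log2 difference -1.67 ± 0.27, adjusted p = 6.17e-04). Gucy1a3, a subunit of the nitric oxide receptor, and the cadherin gene Cdh13 fell by 1.77 ± 0.18 and 1.22 ± 0.14 on the log2 scale, without overlap (adjusted p = 2.53e-05 and 4.68e-05), and Rorb, a factor of layer 4, did too (-0.67 ± 0.10, adjusted p = 2.67e-04). Lpl, the lipoprotein lipase gene, which was in the upper layer list, went the other way, with 19.4, 26.3 and 34.2 FPKM in hippocampus and 7.16, 8.12 and 8.79 FPKM in cortex (1.61 ± 0.14, adjusted p = 5.38e-06).

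In the deep layer list, Foxp2, a forkhead factor of layer 6 corticothalamic neurons, measured 0.283, 0.722 and 1.44 FPKM in hippocampus, against 4.84, 6.71 and 7.17 FPKM in cortex (log2 difference -2.09 ± 0.16, adjusted p = 2.75e-06). This list shares Foxp1 and Ppp1r1b with the striatal genes described below. The part of striatal RNA in its lower genes, Foxp2 included, was not tested. Syt6, a synaptotagmin of layer 6, measured 1.11, 1.46 and 2.11 FPKM in hippocampus and 5.83, 10.4 and 12.5 FPKM in cortex (-2.1 ± 0.16, adjusted p = 2.60e-06), and the cadherin gene Cdh18 fell by 1.16 ± 0.13 on the log2 scale (adjusted p = 5.08e-05). Fezf2, the zinc finger gene that specifies subcerebral projection neurons in the neocortex, was higher instead, with 38.1, 50.4 and 73.5 FPKM in hippocampus and 13.2, 16.1 and 19.6 FPKM in cortex (1.65 ± 0.15, adjusted p = 9.15e-06). Crym, the gene of the thyroid hormone binding protein mu-crystallin, was higher as well, with 73.6, 117 and 199 FPKM in hippocampus and 27.4, 33.6 and 58.1 FPKM in cortex (1.79 ± 0.25, adjusted p = 2.00e-04). The layer factors Tbr1 and Bcl11b, named for their role, differed less and fell by 0.48 ± 0.13 and 0.69 ± 0.19 on the log2 scale with overlapping ranges (adjusted p = 0.0148 and 0.0123), and neither was called without the 3 libraries with much Ttr. Slc17a7, the vesicular glutamate transporter gene of excitatory neurons, was lower without overlap (-0.97 ± 0.19, adjusted p = 0.00192). The excitatory neuron list that holds it split, with 5 of 20 higher and 8 lower (background 24.6% higher and 10.9% lower) and a median of -0.16. Its members Neurod1, Fezf2 and Emx1 were higher. Without the 3 libraries with much Ttr, 4 of its genes were higher and 4 lower. Of 24 cortical area factors, 7 were higher and 7 lower (background 24.6% higher and 10.9% lower), and 8 were higher and 3 lower without those 3 libraries. The retinoic acid binding protein gene Crabp1 measured 5.17, 9.47 and 10.1 FPKM in hippocampus, against 48.03, 52.6 and 119 FPKM in cortex (-2.76 ± 0.21, adjusted p = 2.11e-06), the LIM-only gene Lmo3 fell by 1.06 ± 0.12 (adjusted p = 5.65e-05), and the FGF-responsive ETS factor gene Etv4 was higher by 1.03 ± 0.10 on the log2 scale (adjusted p = 1.67e-05).

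Genes of striatal projection neurons were lower in hippocampus. Of 26, 22 were tested, and 0 were higher and 19 lower (background 10.9% lower), all 19 without overlap (background 5.5%), with a median log2 difference of -1.44. Their summed level was 65.2 to 99.96 FPKM in hippocampus libraries and 243 to 316 FPKM in cortex libraries. Tac1 (chr6:7554879-7565834), the substance P precursor gene of direct pathway neurons, measured 0.583, 1.09 and 2.19 FPKM in hippocampus, against 16.2, 20.9 and 29.5 FPKM in cortex, and had the most negative log2 difference of all genes tested, -3.34 ± 0.15 (adjusted p = 6.62e-08). The indirect pathway genes Adora2a, Drd2 and Penk encode an adenosine receptor, a dopamine receptor and the enkephalin precursor. Adora2a measured 1.05, 1.32 and 1.54 FPKM in hippocampus and 6.92, 8.08 and 10.9 FPKM in cortex (-2.02 ± 0.09, adjusted p = 7.10e-08). Drd2, whose promoter window is printed above, measured 0.348, 0.52 and 0.894 FPKM in hippocampus and 3.82, 4.71 and 6.39 FPKM in cortex (-1.92 ± 0.11, adjusted p = 3.46e-07). Penk measured 2.01, 3.23 and 7.25 FPKM in hippocampus and 21.8, 24.9 and 38.1 FPKM in cortex (-2.6 ± 0.21, adjusted p = 4.47e-06). The retinoid receptor genes Rxrg and Rarb fell by 2.31 ± 0.19 and 1.93 ± 0.16 on the log2 scale, with adjusted p of 3.77e-06 and 5.32e-06. Every cortex library therefore held striatal marker RNA, and the 4 cortex libraries of replicates 4 and 5 did too, with 13.9 to 20.4 FPKM of Tac1. Without cortex SH replicate 3, all 22 genes were called lower. Whether the cortex pieces included striatum was not tested, as no label gives the border.

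Cortical interneuron genes were lower as a group, with 4 of 29 higher, 18 lower (background 24.6% higher and 10.9% lower) and a median of -0.49. The summed level was 449 to 622 FPKM in hippocampus and 793 to 1373 FPKM in cortex. Sst, the somatostatin gene, measured 51.1, 80.4 and 122 FPKM in hippocampus, against 314, 394 and 688 FPKM in cortex (log2 difference -2.32 ± 0.22, adjusted p = 1.32e-05). The vesicular GABA transporter gene Slc32a1 measured 8.19, 11.1 and 14.9 FPKM in hippocampus and 25.2, 31.4 and 34.3 FPKM in cortex, and the homeobox gene Dlx5 4.03, 4.97 and 6.04 FPKM in hippocampus and 10.1, 11.8 and 14.9 FPKM in cortex. The groups did not overlap for these genes, with log2 differences of -1.38 ± 0.13 (adjusted p = 1.45e-05) and -1.16 ± 0.11 (adjusted p = 1.17e-05). Gad2, a GABA-synthesising enzyme gene, fell by 0.96 ± 0.12 (adjusted p = 8.47e-05). Cxcr4, the receptor for Cxcl12 that guides migrating interneurons and also marks dentate progenitors and Cajal-Retzius cells, went the other way, with 34.04, 52.9 and 69.6 FPKM in hippocampus and 9.36, 15.1 and 24.3 FPKM in cortex (1.7 ± 0.11, adjusted p = 9.87e-07). Prox1 and Calb2, whose values are given above, are also in this list and were higher, Prox1 by the most of its members (1.87). Several genes of this list, among them Slc32a1, Gad2 and Dlx5, are also expressed by striatal neurons, whose markers moved the same way, and their part in the difference was not tested. Without the 3 hippocampus libraries with much Ttr, 3 were higher and 10 lower (median -0.34).

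Axon guidance genes were called in both directions, with 24 of 59 higher, 12 lower (background 24.6% higher and 10.9% lower) and a median of 0.31. After median-of-ratios scaling, 17 were higher and 15 lower, where all 13158 genes tested gave 2289 higher and 2108 lower. Nrp1, a receptor for class 3 semaphorins and VEGF, measured 24.6, 47.1 and 66.7 FPKM in hippocampus, against 5.69, 8.86 and 9.59 FPKM in cortex (log2 difference 2.25 ± 0.20, adjusted p = 7.56e-06). The ligand Sema3c measured 31.1, 43.1 and 53.2 FPKM in hippocampus and 5.53, 12.96 and 14.5 FPKM in cortex (1.79 ± 0.20, adjusted p = 3.73e-05). The ligand Sema3a differed in the other direction, with 1.15, 1.62 and 2.14 FPKM in hippocampus and 2.83, 5.68 and 6.26 FPKM in cortex (-1.23 ± 0.15, adjusted p = 8.36e-05). Draxin, a secreted netrin antagonist, and Epha4, an ephrin receptor, were higher by 1.23 ± 0.16 and 1.37 ± 0.23 on the log2 scale (adjusted p = 1.18e-04 and 7.32e-04). The groups did not overlap for any of these 5 genes, and cortex SH replicate 3 held the lowest cortex value of each. Leaving out the 3 hippocampus libraries with much Ttr, 13 guidance genes were higher and 5 lower.

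Receptor and transporter genes of maturing synapses were lower more often than higher. Of 21 GABA and glycine genes, 3 were higher and 12 lower (median -0.42), and of 25 glutamate receptor genes, 2 were higher and 8 lower (median -0.37). The background was 24.6% higher and 10.9% lower. Slc12a5, the chloride exporter KCC2 whose rise makes GABA inhibitory as neurons mature, measured 5.56, 6.65 and 8.41 FPKM in hippocampus, against 12.4, 20.9 and 26.5 FPKM in cortex (log2 difference -1.45 ± 0.15, adjusted p = 2.91e-05). The GABA receptor subunit gene Gabra3 and the glycine receptor subunit gene Glra2 fell by 1.31 ± 0.15 and 1.01 ± 0.13 on the log2 scale, whereas the subunit gene Gabra4 was higher by 0.71 ± 0.13 (adjusted p = 5.10e-05, 1.37e-04 and 0.00142). The kainate receptor gene Grik1 fell by 0.81 ± 0.15 with slight overlap (adjusted p = 0.00109), opposite to Grik4. These counts rested on the libraries used. Without cortex SH replicate 3, 16 GABA and glycine genes and 16 glutamate receptor genes were lower, and without the 3 hippocampus libraries with much Ttr, 5 and 1 were. Calls over all 13158 genes tested moved the same way, with 2002 and 778 lower in these settings, against 1428 on all 12 libraries.

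Of 47 channel genes, 7 were higher and 7 lower (median -0.01), and the balance turned with the libraries used. The background for this list and for cadherin and neuropeptide genes was 24.6% higher and 10.9% lower. Without cortex SH replicate 3, 7 were higher and 16 lower (median -0.14), and without the 3 hippocampus libraries with much Ttr, 5 were higher and 3 lower (median 0.17). The EE libraries alone gave 4 higher and 17 lower, and the SH libraries alone 2 higher and 1 lower. Over all 13158 genes tested, 3745 were higher and 2002 lower without cortex SH replicate 3. Without the 3 libraries with much Ttr, 1441 were higher and 778 lower. The EE libraries alone gave 3178 higher and 1639 lower, and the SH libraries alone 299 and 219. The 2-pore potassium channel gene Kcnk1 was higher by 1.3 ± 0.15 and the Shaw-type gene Kcnc4 fell by 1.06 ± 0.11 on the log2 scale (adjusted p = 6.16e-05 and 2.83e-05). Cadherin genes gave 0 of 25 higher and 8 lower (median -0.23). Without cortex SH replicate 3, 0 were higher and 14 lower, without the 3 libraries with much Ttr 1 was higher and 5 lower, and the SH libraries alone gave 0 higher and 5 lower with a median of 0.10. Cdh22 measured 0.621, 0.77 and 1.02 FPKM in hippocampus and 2.84, 3.34 and 3.57 FPKM in cortex (log2 difference -1.24 ± 0.09, adjusted p = 1.85e-06), and the protocadherin gene Pcdh11x 0.47, 0.578 and 1.14 FPKM in hippocampus and 2.12, 5.42 and 6.82 FPKM in cortex (-1.8 ± 0.17, adjusted p = 1.03e-05). Neuropeptide genes gave 5 higher and 13 lower of 22 (median -0.55). Scg2 (chr1:79434669-79440120), the granin precursor of secretoneurin, had the smallest p of all genes tested. It measured 12.3, 14.03 and 16.1 FPKM in hippocampus, against 57.2, 64.97 and 71.98 FPKM in cortex, with a log2 difference of -2.13 ± 0.09 and an adjusted p of 5.82e-08. Tac1 and Tac2, which encode related tachykinins, therefore stood at opposite ends of this list.

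Immediate early genes gave 7 higher and 4 lower of 19 (background 24.6% higher and 10.9% lower), with a median of 0.04 that was -0.06 after median-of-ratios scaling. The orphan nuclear receptor gene Nr4a3 measured 16.8, 26.01 and 42.7 FPKM in hippocampus, against 4.39, 4.96 and 7.04 FPKM in cortex (log2 difference 2.14 ± 0.17, adjusted p = 3.78e-06), and its relative Nr4a2 was higher by 1.23 ± 0.20 (adjusted p = 6.30e-04). Ier5, an early response gene, measured 23.3, 34.4 and 39.6 FPKM in hippocampus and 10.6, 11.5 and 14.4 FPKM in cortex (1.38 ± 0.11, adjusted p = 3.82e-06). Steroid and thyroid hormone receptor genes gave 5 higher and 5 lower of 20, with the higher share near the background of 24.6%. Nr4a3 and Rxrg had the most positive and most negative log2 differences of that list. Of 11 thalamic and diencephalic genes tested, 3 were higher and 2 lower, with the higher share again near the background of 24.6%. Calb1, the calbindin gene, which many neurons outside the thalamus express, measured 3.23, 4.22 and 7.43 FPKM in hippocampus and 17.8, 18.8 and 21.3 FPKM in cortex (-1.82 ± 0.17, adjusted p = 1.23e-05).

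Markers of choroid plexus, ependyma and meninges differed between tissues in part, but the summed levels of their lists overlapped. Their part in other results was not tested. Choroid plexus and ependyma genes gave 13 higher and 1 lower of 28 (background 24.6% higher and 10.9% lower), with a median of 1.76. Their summed level, however, ran from 246 to 18490 FPKM in hippocampus and from 229 to 715 FPKM in cortex. Without the 3 hippocampus libraries with much Ttr, 10 were higher and 4 lower and the median was 0.03. Without the 2 with Xist, 23 were higher and 0 lower (median 2.61). Ttr itself was not called (log2 difference 3.52 ± 1.68, adjusted p = 0.121). Calml4, a calmodulin-like gene of this list, measured 18.3, 34.2 and 5.21 FPKM in hippocampus EE replicates 1 to 3 and 49.2, 2.74 and 3.73 FPKM in SH replicates 1 to 3, against 0.285, 1.02 and 1.98 FPKM in cortex, so that the 3 libraries with much Ttr were again the highest (2.69 ± 0.59, adjusted p = 0.00401). For 3 genes of motile cilia, all 6 hippocampus libraries lay above cortex. Foxj1, the master factor of ciliated cells, measured 50.8, 46.4 and 63.6 FPKM in hippocampus EE replicates 1 to 3 and 78.2, 29.7 and 47.6 FPKM in SH replicates 1 to 3, against 7.74, 8.28 and 9.92 FPKM in cortex (2.44 ± 0.18, adjusted p = 1.85e-06). The dynein light chain gene Dynlrb2 and the radial spoke gene Rsph1 were also higher without overlap, by 2.54 ± 0.24 and 2.06 ± 0.22 on the log2 scale (adjusted p = 1.23e-05 and 3.05e-05).

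Meningeal and fibroblast genes were lower, with 0 of 28 higher, 15 lower (background 24.6% higher and 10.9% lower) and a median of -0.83. Their summed level was 130 to 1389 FPKM in hippocampus and 1181 to 2835 FPKM in cortex, so that the ranges overlapped. The organic anion transporter gene Slc22a6 measured 0.54, 1.901 and 4.81 FPKM in hippocampus, against 11.1, 12.3 and 16.6 FPKM in cortex (log2 difference -2.28 ± 0.28, adjusted p = 9.13e-05), and Crabp2, a retinoic acid binding protein gene, 0.69, 2.59 and 7.33 FPKM in hippocampus and 11.03, 14.1 and 28.9 FPKM in cortex (-2.22 ± 0.34, adjusted p = 4.10e-04). Ptgds, the prostaglandin D synthase gene of the meninges, named with its values known, spanned 12.6, 159 and 1062 FPKM in hippocampus and 684, 784 and 2285 FPKM in cortex (-3.02 ± 0.80, adjusted p = 0.0111). Against cortex replicates 4 and 5, 7 of 27 genes of this list were lower, and Ptgds and the meningeal forkhead gene Foxc1 (-0.77 ± 0.16 against replicates 1 to 3, adjusted p = 0.00263) were not called, at -2.26 and -0.48. Ptgds was also not called without the 3 hippocampus libraries with much Ttr (-2.68). Over all genes tested, the comparison with cortex replicates 4 and 5 called 1242 of 12719 lower. Microglia and macrophage genes gave 1 higher and 5 lower of 24, against the same background. The macrophage genes Pf4, F13a1 and Mrc1, which encode a chemokine, a clotting factor subunit and the mannose receptor of macrophages at brain borders, fell by 1.58 ± 0.32, 1.34 ± 0.31 and 0.88 ± 0.26 on the log2 scale (adjusted p = 0.00256, 0.00584 and 0.0181). Pf4 was not called against cortex replicates 4 and 5 (-0.93).

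Vascular and oligodendrocyte lists were read against the background of 24.6% higher and 10.9% lower. Endothelial genes gave 4 higher and 1 lower of 25, including Slco1c1, a thyroid hormone transporter (1.13 ± 0.16, adjusted p = 2.13e-04), Kdr, a VEGF receptor (1.14 ± 0.23, adjusted p = 0.00231), and in the other direction Itm2a (-0.75 ± 0.17, adjusted p = 0.00503, and not called against cortex replicates 4 and 5). Pericyte and smooth muscle genes gave 2 higher and 4 lower of 17, led by vitronectin, Vtn (-1.06 ± 0.24, adjusted p = 0.00482). Oligodendrocyte lineage genes gave 1 higher and 6 lower of 17, among them Omg, a myelin glycoprotein gene (-1.08 ± 0.12, adjusted p = 5.10e-05), without overlap. Erythroid genes gave 0 higher and 1 lower of 8. None of the 79 cytosolic ribosomal protein genes and 1 of 13 mitochondrial genome transcripts was called on 12 libraries. Against cortex replicates 4 and 5, however, 27 ribosomal protein genes were lower and 2 higher, and 8 of 12 mitochondrial transcripts were lower. The EE libraries alone gave 16 ribosomal protein genes higher and 0 lower, and 2 of 13 mitochondrial transcripts lower. Over all genes tested, the EE libraries alone called 3178 higher and 1639 lower of 13158, shares near those of these 2 lists. The comparison with cortex replicates 4 and 5 called 2296 higher and 1242 lower of 12719.

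**Figure D4:**
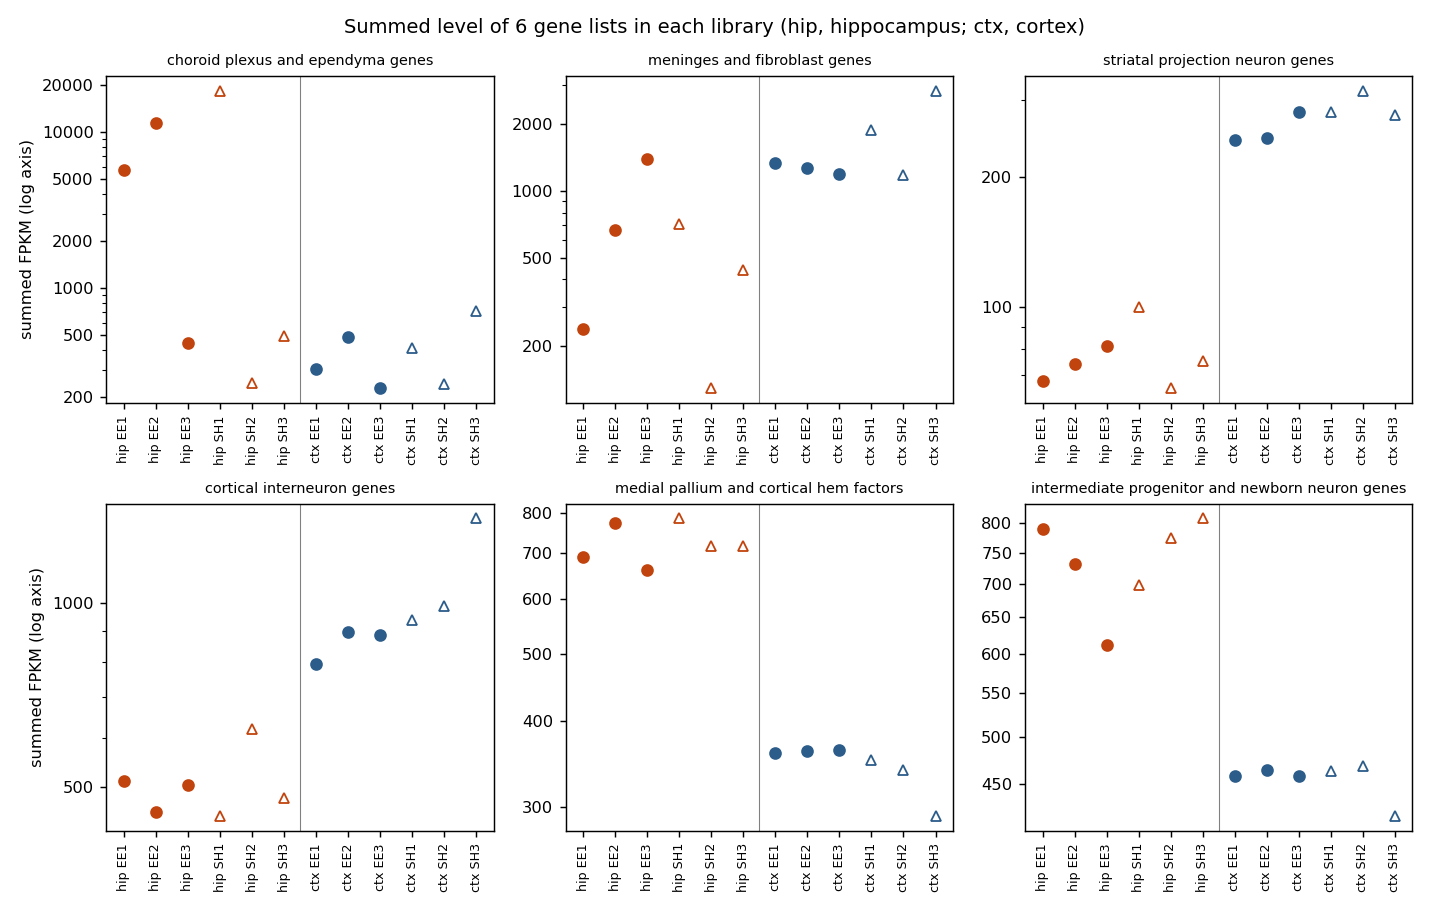
Summed FPKM of 6 gene lists in each library on log axes, the 6 hippocampus libraries left of the grey line and the 6 cortex libraries right of it. Filled circles are EE and open triangles SH libraries. Striatal, interneuron, medial pallium and intermediate progenitor genes separate the tissues in every library, the choroid plexus list is high in 3 hippocampus libraries, and the meningeal list overlaps between tissues.

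The rule for naming took 15 genes in each direction by p, and several of them were in no list. Col2a1, a fibrillar collagen, measured 6.24, 8.53 and 10.1 FPKM in hippocampus, against 0.839, 0.974 and 1.29 FPKM in cortex (log2 difference 2.22 ± 0.12, adjusted p = 2.21e-07). Thrsp, a thyroid hormone responsive gene linked to lipid synthesis and to adult dentate stem cells, measured 24.7, 33.6 and 52.3 FPKM in hippocampus and 2.49, 3.83 and 7.64 FPKM in cortex (2.8 ± 0.18, adjusted p = 8.98e-07). The growth factor receptor gene Fgfr1, needed for hippocampal growth, measured 32.5, 49.3 and 57.8 FPKM in hippocampus and 11.7, 12.6 and 14.7 FPKM in cortex (1.78 ± 0.12, adjusted p = 8.98e-07). The matrix genes Ltbp1, which holds latent TGF-beta, and Fbln2, which encodes a fibulin, were higher by 1.62 ± 0.10 and 1.61 ± 0.11 on the log2 scale (adjusted p = 4.50e-07 and 9.94e-07). Fam163a was higher by 2.46 ± 0.17 (adjusted p = 9.94e-07).

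Among the 15 lower genes, several others were in no list or were not yet described. The copine gene Cpne6, a calcium-dependent membrane binding protein, measured 0.659, 0.861 and 2.23 FPKM in hippocampus, against 11.4, 14.7 and 18.5 FPKM in cortex (log2 difference -2.94 ± 0.16, adjusted p = 2.31e-07). Dclk3, a doublecortin-like kinase, measured 0.59, 0.758 and 1.05 FPKM in hippocampus and 6.06, 6.26 and 7.28 FPKM in cortex (-2.05 ± 0.09, adjusted p = 6.67e-08). The vesicle gene Nrsn2, the nicotinic receptor modulator Lypd1 and the exocytosis gene Baiap3 fell by 2.27 ± 0.15, 1.85 ± 0.13 and 1.94 ± 0.11 on the log2 scale. Stac, an adaptor of calcium channels, the Ras inhibitor Rasal1 and the proline transporter Slc6a7 fell by 1.63 ± 0.09, 1.63 ± 0.10 and 1.53 ± 0.09, and the synaptic organiser Cbln2 and the inward rectifier channel Kcnj4 fell by 1.5 ± 0.10 and 1.46 ± 0.10. Adjusted p for these 8 genes ran from 1.90e-07 for Stac to 9.94e-07 for Kcnj4, and no range of hippocampus libraries overlapped that of cortex, as the naming rule required.

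The difference between tissues was also read in each housing. With the EE libraries, 3 per tissue, 4817 genes were called (36.6%), and with the SH libraries 518 (3.94%). Of these, 502 were called in both, all in the same direction, which is 10.4% of the EE calls and 96.9% of the SH calls. All 583 genes with a log2 difference of at least 1 had the same sign in EE and in SH. They were chosen for that difference over both housings together, so a change of sign was unlikely and this is no test of agreement. The tissue by housing term, which tests whether the difference itself depends on housing, called 0 genes (0%) by limma, with 990 genes (7.52%) at an unadjusted p under 0.05 and a smallest adjusted p of 0.495. By limma-voom on recovered reads, 0 genes were called and 884 had an unadjusted p under 0.05. The gap between 4817 and 518 calls is thus a gap in calls and not a tested difference in effect. Cortex SH replicate 3 and hippocampus SH replicate 1, the library with the most Ttr, are both in the SH set. The EE set also holds libraries with much Ttr, hippocampus EE replicates 1 and 2 (4989 and 10300 FPKM). Without cortex SH replicate 3 the SH libraries gave 659 calls, and the cause of the gap was not tested. By list, medial pallium and hem factors were higher in 23 of 34 cases in EE and 19 in SH, striatal genes lower in 22 of 22 in EE and 14 in SH, and intermediate progenitor genes higher in 17 of 23 in EE and 10 in SH, with medians in EE and SH of 1.23 and 1.27, of -1.56 and -1.44, and of 0.95 and 0.83 on the log2 scale. In EE, 2 intermediate progenitor genes were also called lower, and in SH 0 were. Other lists lost most of their calls in SH. G2 and M phase genes were higher in 23 cases in EE and 3 in SH, S phase genes in 16 and 0, and radial glia and astrocyte genes in 29 and 5. Interneuron genes were lower in 19 cases in EE and 6 in SH, and glutamate receptor genes in 15 and 0. The medians of these lists in EE and SH were 0.70 and 0.71 for G2 and M phase, 0.52 and 0.33 for S phase, 0.82 and 0.53 for radial glia, -0.61 and -0.30 for interneurons and -0.48 and -0.11 for glutamate receptors.

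**Figure D5:**
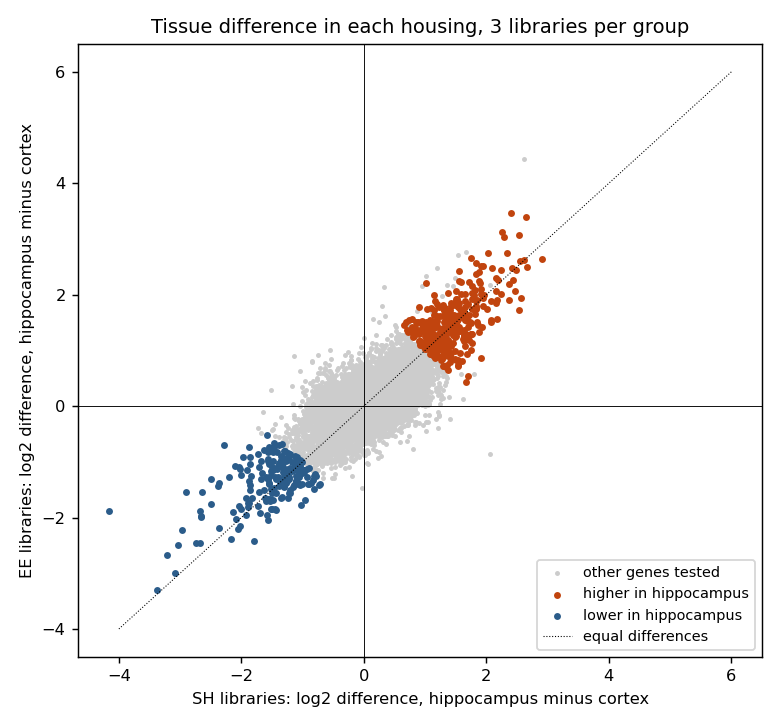
Log2 difference, hippocampus minus cortex, fitted in the 3 and 3 EE libraries (vertical axis) and in the 3 and 3 SH libraries (horizontal axis). Red and blue points are the 583 genes called with a log2 difference of at least 1 on all 12 libraries, grey points the other genes tested and the dotted line equal differences. Every red and blue point has the same sign on both axes, which the choice of these genes on the same libraries favours.

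Cortex replicates 4 and 5, 2 EE and 2 SH libraries that were not used in the fit, gave a second reading of the cortex side. Of the 583 genes, 474 were listed in all 4 of their tables. For 400 of these, all 4 libraries lay outside the range of the 6 hippocampus libraries on the side of the other cortex libraries, 251 of 282 genes higher in hippocampus and 149 of 192 lower. Scg2 measured 48.9 to 68.6 FPKM there, Tac1 13.9 to 20.4 FPKM, Emx2 4.23 to 5.32 FPKM, Lhx2 21.7 to 29.3 FPKM, Zbtb20 1.37 to 3.44 FPKM and Eomes 4.42 to 8.58 FPKM, each on the cortex side of the hippocampus range. With these 4 libraries as the cortex group, 3538 of 12719 genes were called, 2296 higher and 1242 lower. The hippocampus values are the same in both comparisons.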

How the data were processed

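Each library has a table of FPKM values per gene symbol, made by the authors and used here as deposited. Per the submitters' processing notes, cutadapt 1.9, HISAT2 2.0.4, StringTie 1.3.4d, edgeR and DESeq2 were used with build mm10. Their roles, the annotation and the filter on genes are not given in the sources used here. Hippocampus and cortex come as separate sets of tables with different gene lists, so that tissue and table set coincide. log2(FPKM + 1) of the 12 libraries was fitted with limma 3.58.1 in R 4.3.3, with trended variance and terms for tissue and housing, over genes with a mean of at least 1 FPKM. P-values were adjusted by the Benjamini-Hochberg method with a threshold of 0.05, and a second rule asked for an absolute log2 difference of at least 1. The log2(FPKM + 1) scale understates the change of genes with low values. Whole reads were recovered from the steps of the FPKM values for 14982 of 14993 genes (99.93%, within 0.003 reads), and limma-voom on them called 4540 genes. Recovered reads were 15334762 to 21001601 per library, with a median of 418 to 658 per gene. Scripts were tested on simulated data.

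Coordinates are of GRCm38 (GENCODE M21), which matched 15134 of 16251 symbols (93.1%). Named genes are the 15 higher and 15 lower with the smallest p among those called with an absolute log2 difference of at least 1 and no overlap between tissues, leaving out predicted names, and up to 6 members of each of 33 lists with the smallest p. The dentate, CA, medial pallium and hem lists could be named in full. Reln, Tbr1, Bcl11b, Mki67, Top2a, Ptgds and Ttr were named outside this rule where they did not meet it, with their values known, and some genes that the rule takes are not reported here. The members and the lists were chosen with earlier results of these data known. Alternatives covered scaling, the filter, the pseudocount, the variance model, a replicate block, the libraries used and the removal of trends with length, GC content and level. Leaving out the libraries with much Ttr, those with Xist, or cortex SH replicate 3 within SH was added after the data were seen. A total of 21 symbols turned into dates were left unnamed.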

Additional observations from a re-analysis of the deposited data

Results flagged for a closer look

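In each tissue, 139 genes and 33 lists were examined for a library whose gap to the nearest of the other 5, divided by the range of the 6, exceeded 0.625. Of 344 groups of 6 libraries, 56 (16.3%) had one, where chance gives about 1 in 20, and many of them share libraries. Cortex SH replicate 3 accounted for 42 and hippocampus EE replicate 3 for 10.

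Hippocampus EE replicate 3 had the lowest FPKM of its 6 libraries for Emx2 at 15.4, Nfia at 11.8, Zbtb20 at 5.59, Neurod1 at 23.5, Tgfb2 at 9.45, Epha4 at 24.9 and Kcnk1 at 8.74. Hippocampus EE replicate 3 had the highest FPKM of its 6 libraries for Cpne6 at 2.23 and Pcdh11x at 1.14. Hippocampus EE replicate 3 had the lowest mean log2(FPKM + 1) of its 6 libraries for intermediate progenitor and newborn neuron genes at 4.07. Hippocampus SH replicate 2 had the lowest FPKM of its 6 libraries for Etv4 at 14.6 and Slco1c1 at 17.4. Cortex SH replicate 3 had the lowest FPKM of its 6 libraries for Gli3 at 0.779, Zbtb20 at 0.632, Nr3c2 at 0.630, Wfs1 at 4.85, Tnc at 14.6, Gucy1a3 at 17.4, Cdh13 at 35.7 and Foxp2 at 4.84. It was also the lowest for Syt6 at 5.83, Bcl11b at 9.84, Reln at 9.98, Lhx1 at 0.0978, Spock3 at 5.72, Nrp1 at 5.69, Sema3c at 5.53 and Sema3a at 2.83. It was also the lowest for Epha4 at 5.601, Draxin at 11.6, Slc12a5 at 12.4, Gabra3 at 16.4, Glra2 at 18.5 and Grik1 at 3.60. Cortex SH replicate 3 had the highest FPKM of its 6 libraries for Emx1 at 25.3, Crym at 58.1, Sst at 688, Calb2 at 71.2, Ier5 at 14.4 and Crabp1 at 119. Cortex SH replicate 3 had the lowest mean log2(FPKM + 1) of its 6 libraries for dentate and CA field genes at 2.71, upper layer and callosal genes at 3.56, cortical area factors at 2.98, Cajal-Retzius genes at 2.94, oligodendrocyte lineage genes at 2.99, BMP and TGF-beta pathway genes at 2.50, glutamate receptor genes at 2.58 and GABA and glycine receptor and transporter genes at 3.25. It was also the lowest for potassium, sodium and calcium channel genes at 1.84, axon guidance genes at 2.67 and cadherin genes at 1.83. Cortex SH replicate 3 had the highest mean log2(FPKM + 1) of its 6 libraries for erythroid genes at 6.45, neuropeptide genes at 4.06 and cytosolic ribosomal protein genes at 9.04. Cortex SH replicate 1 had the highest FPKM of its 6 libraries for Rspo1 at 1.29. Cortex SH replicate 2 had the lowest FPKM of its 6 libraries for Trp73 at 2.90. These values are given without a cause.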

How the results depend on the processing

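The 4661 calls, 3233 higher and 1428 lower, became 2744 with 1758 higher when a mean of at least 5 FPKM was asked for, which leaves fewer genes tested, and 2219 with 1441 higher and 778 lower without the 3 hippocampus libraries with much Ttr. The SH libraries alone gave 518 calls, 299 higher and 219 lower, and without cortex SH replicate 3 they gave 659, 379 higher and 280 lower, of which 319 reached a log2 difference of 1. Quantile normalization left 2155 higher genes, and removing trends gave 2472 lower genes. The cause was not tested. The 583 genes with a log2 difference of at least 1 became 1022 and 1098 with pseudocounts of 0.1 and 0.01, 1089 by limma-voom and 306 with the filter of 5 FPKM. Leaving out 1 library at a time gave 3676 to 5747 calls, 2533 to 3745 higher and 1143 to 2002 lower, with the most in each case without cortex SH replicate 3, 531 to 672 genes with a log2 difference of at least 1, and 0 to 0 genes for the tissue by housing term. Ttr reversed to -0.25 without the 3 libraries with much of it. Over 139 genes and 30 settings, 4000 values kept direction and side of the threshold, 95 lost the call, 16 gained it and 1 reversed.

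With housing and replicate number as a block, 4357 genes were called, 3023 higher and 1334 lower, and 586 with a log2 difference of at least 1. Deviations of libraries that share a number correlated at -0.033, 0.217 and 0.216 in EE and 0.083, 0.283 and 0.022 in SH, so the numbers were not taken as pairs. Xist and Ddx3y also differed between the tissues at EE replicate 3 and SH replicate 2.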

Other observations

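Some genes were listed in the tables of 1 tissue alone and entered no comparison, since an unlisted gene may be low or may have been left out by a filter. The hippocampus tables held 254 such symbols, 78 of them with a mean of at least 1 FPKM. Alb, the serum albumin gene, had 7.71, 13.7 and 15.9 FPKM (lowest, median and highest of 6 libraries). Tmem72, a choroid plexus gene, had 0.011, 2.91 and 17.99 FPKM. The cortex tables held 1003 such symbols, 114 with a mean of at least 1 FPKM. Avp, the vasopressin gene, had 4.40, 10.1 and 19.5 FPKM, Lhx8, a LIM homeobox gene of ventral telencephalic neurons, 4.60, 7.08 and 9.61 FPKM, and Tfap2d 1.47, 3.24 and 3.85 FPKM.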
